A study of Danio rerio with 16 samples.

Results

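Rises and dips are short stretches of the zebrafish genome whose CpG methylation in whole fin was out of line at 1 day post-amputation (dpa), with the levels of 0 dpa and 4 dpa on the same side of it. The genome was cut into 500 bp tiles. A tile was eligible if it held at least 4 CpGs and had at least 20 CpG calls (reads summed over its CpGs) in each of the 8 whole fin libraries. Members were chosen by their levels at 0, 1 and 4 dpa. A rise had a level at 1 dpa at least 20 percentage points (points) above those of 0 dpa and of 4 dpa, a dip at least 20 points below both, and both 1 dpa libraries had to lie beyond all libraries of 0 and 4 dpa. The level of a tile is the percentage of its calls that were methylated, pooled over both libraries of a group unless single libraries are named. Of 2631724 tiles with a CpG, 1185966 were eligible, and 2319 of these were members, 2045 rises and 274 dips. Rises were 0.172% and dips 0.0231% of the eligible tiles.

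Methylation of the cytosine of CpGs is the main mark placed on vertebrate DNA itself. It is copied onto the new strand when DNA replicates and is lost when that copying fails or when oxidation and repair remove it. Most CpGs of a vertebrate genome are methylated, while promoters and active enhancers tend to be low, and a tissue with an intermediate level at a site usually holds cells with the site methylated and cells with it unmethylated. The amputated fin first closes the wound with epidermis that moves over the stump and then forms a blastema, a mass of dividing cells that rebuilds bone and soft tissue.

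All 16 libraries came from adult zebrafish with the transgene Tg(sp7:EGFP), in which the promoter of sp7, an osteoblast transcription factor, drives green fluorescent protein. Whole fin was taken at 1, 2 and 4 dpa from regenerates, which by the study's account hold both blastema and wound epidermis, and at 0 dpa from uninjured caudal fins, so the cell makeup of the tissue changed along with time. Cells sorted by fluorescence were sp7+ at 4 and 0 dpa and sp7- at 4 and 0 dpa, and each of the 8 groups had 2 libraries. By the study's methods the fish of a sorted library were pooled, so sorted replicates also differ by pool. Those methods do not describe pooling for whole fin. The sp7- gate holds every fin cell without the transgene's signal. Methylation holds no expression of cell type markers, and no gene annotation of the genome build was used, so the sorted labels were not checked against markers. Whole fin libraries held 117991918 to 153260623 calls and sorted libraries 198736279 to 471925247. Over all calls, the 1 dpa libraries had the highest levels of the whole fin libraries, 79.0% and 79.2%, against 76.1% to 78.4% in the other 6. Among sorted libraries, sp7- 4 dpa replicate 2 stood apart from replicate 1, with 76.1% against 78.5%, and the main values that rest on it are also given without it, an alternative chosen after the data were seen.

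The values that chose the members are given as a description with no test. Over the rises the median level was 51.9% in 0 dpa fin, 76.8% in 1 dpa fin, 63.6% in 2 dpa fin and 51.0% in 4 dpa fin. Over the dips it was 62.7% in 0 dpa fin, 36.8% in 1 dpa fin, 55.4% in 2 dpa fin and 64.2% in 4 dpa fin. The eligible tiles moved little beside these, with medians of 84.0%, 85.9%, 84.6% and 82.7% at 0, 1, 2 and 4 dpa. Members thus came from tiles that were far below the usual level of the genome in intact fin and in the 4 dpa regenerate, and rises at 1 dpa still lay below the median eligible tile. For rises the rule itself keeps highly methylated tiles out. Their 0 and 4 dpa levels must lie at least 20 points under a 1 dpa level that cannot pass full methylation. The rule sets no such ceiling for dips, but it keeps out tiles under 20% at 0 or 4 dpa.

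**Figure D1:**
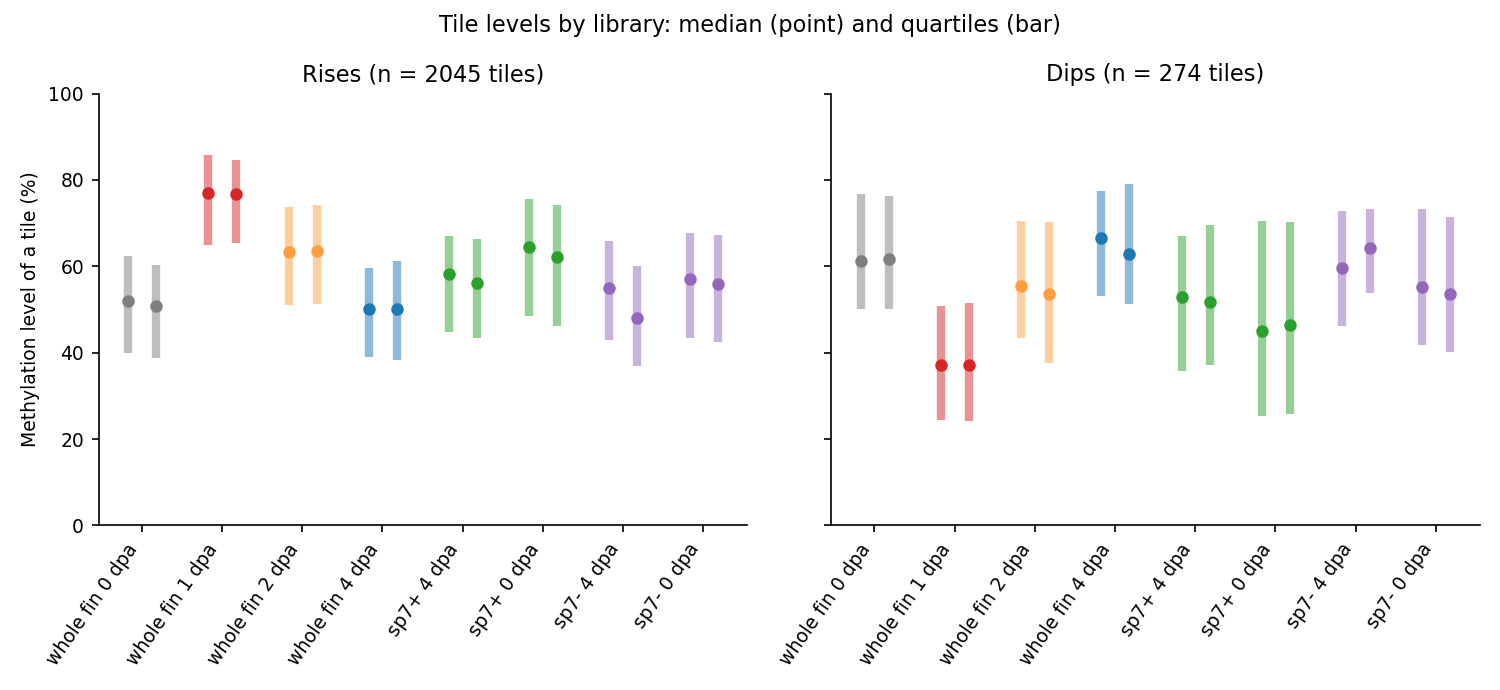
Methylation level in percent of rises (left) and dips (right) in each of the 16 libraries, with the median over tiles as a point and the quartiles as a bar. In the rises both 1 dpa libraries have medians near 77%, both 2 dpa libraries lie between 63% and 64%, and the 0 and 4 dpa libraries lie at 50% to 52%.

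The size of the step at 1 dpa was close to the limit for most members. The gap between the level at 1 dpa and the nearer of the levels at 0 and 4 dpa had a median of 22 points in rises and 22.1 points in dips. It was under 22 points in 1019 rises and 132 dips, and at least 30 points in 64 rises and 10 dips, with a largest gap of 39.5 points in a rise and 34.3 points in a dip. The rises just inside the limit were chr22:22475500-22475999 and chr1:13293000-13293499, both at 20 points, and the tiles just outside it were chr20:54226000-54226499 with 19.997 points and chr19:19760500-19760999 with 19.994 points. The dips just inside were chr21:22467000-22467499 with −20.014 points and chr18:47098500-47098999 with −20.033 points, and the tiles just outside were chr22:4413500-4413999 with −19.982 points and chr3:61741500-61741999 with −19.974 points. Coordinates are those of GRCz10 as deposited, and whether positions count from 0 or from 1 was not settled.

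The same rule with the 2 dpa libraries in the place of the 1 dpa libraries found 1272 rises (0.107% of eligible tiles) and 282 dips (0.0238%). The number of dips was thus close to that at 1 dpa, while rises were 1.61 times as many at 1 dpa. Without any limit on size, both 1 dpa libraries lay above all libraries of 0 and 4 dpa in 15.9% of eligible tiles and below them in 3.16%. The genome-wide level moved in the same direction, and setting each whole fin library to the same genome-wide level, a shift of 1.25 and 1.44 points down for the 1 dpa libraries, left 940 rises and 525 dips. The rises were then 64.2% of all members rather than 88.2%, 940 of the 2045 rises remained, and all 274 dips remained among the 525.

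Rises and dips were spread over all 25 chromosomes. Per 1000 eligible tiles there were 1.21 rises on chromosome 21 and 2.37 on chromosome 7, the lowest and the highest, and chromosome 7 also held the largest number, 151. For dips the lowest and highest were 0.0788 on chromosome 9 and 0.362 on chromosome 17. Within 1 Mb of a chromosome end lay 3.23% of rises and 4.38% of dips, against 4.38% of eligible tiles. Most members stood alone: 2025 rises had no rise in the next tile and 10 pairs of rises were neighbours, while 272 dips stood alone and 1 pair were neighbours. Of the 1963 eligible neighbours of rises, counted on both sides, 1.02% were rises, beside 0.172% of all eligible tiles. Of the 250 of dips, 0.8% were dips, beside 0.0231%, and these were the 1 pair counted from both sides. Among eligible tiles at 25% to 75% in sorted cells there were 7.13 rises and 0.863 dips per 1000. Neighbours were not compared with eligible tiles of like level, so these shares do not show that members cluster. In windows of 200 kb, 1434 of the 1716 windows that held a rise held 1 only, and the fullest held 5 rises over chr16:37028000-37101499. Of the 265 windows with a dip, 258 held 1 dip, and a single window held more than 2, with 4 dips over chr22:2664000-2735999.

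Members were poorer in CpGs and in calls than eligible tiles. The median number of CpGs was 8 in rises and 8 in dips, against 11 in eligible tiles, and the pooled 1 dpa level rested on a median of 92 calls in rises and 85.5 in dips, against 152. Calls per CpG over the 8 whole fin libraries had medians of 52.6 in rises and 43.9 in dips, against 59.1. No member had more than 3 times the median depth, as 0.167% of eligible tiles had, and the calls at 1 dpa against those at 0 and 4 dpa together had a median ratio of 0.490 in rises, 0.477 in dips and 0.495 in eligible tiles. The part of low call numbers in the gaps at 1 dpa was not tested. Sequences around the members are not shown, because no genome of this build was used.

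The tiles around the members give levels that did not choose them. In tiles 1 to 2.5 kb away on both sides, whose levels the rule did not use, the mean level of rises stayed near that of the genome, and the rise minus these flanks was −27.2 ± 0.582 points in 0 dpa fin, −4.73 ± 0.0884 in 1 dpa fin, −16.4 ± 0.171 in 2 dpa fin and −27.2 ± 0.193 in 4 dpa fin (SD over libraries, n = 2). The tile's own levels at 0, 1 and 4 dpa enter this difference, so only its 2 dpa value was not used by the rule. The 2 dpa value lay between the others. Those were chosen for lying far apart, so its place between them is a description. In the tiles next to a rise, the mean levels at 0, 1, 2 and 4 dpa were 69.2%, 73.8%, 71.9% and 68.2% on one side and 69.6%, 73.8%, 72.0% and 68.4% on the other, a smaller step in the same direction. Tiles at 1 kb had 77.7% and 77.1% on either side at 0 dpa, and 79.9% and 79.4% at 1 dpa. Over eligible tiles the mean moved from 77.5% to 79.4%, so part of the step next to rises was shared by the genome. For dips the same difference was −12.9 ± 0.0424 points in 0 dpa fin, −39.4 ± 0.26 in 1 dpa fin, −21.95 ± 1.25 in 2 dpa fin and −10.3 ± 0.437 in 4 dpa fin. The tiles next to a dip hardly differed between time points, with 66.7%, 66.0%, 66.2% and 66.1% on one side and 69.4%, 69.3%, 68.7% and 69.4% on the other.

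**Figure D2:**
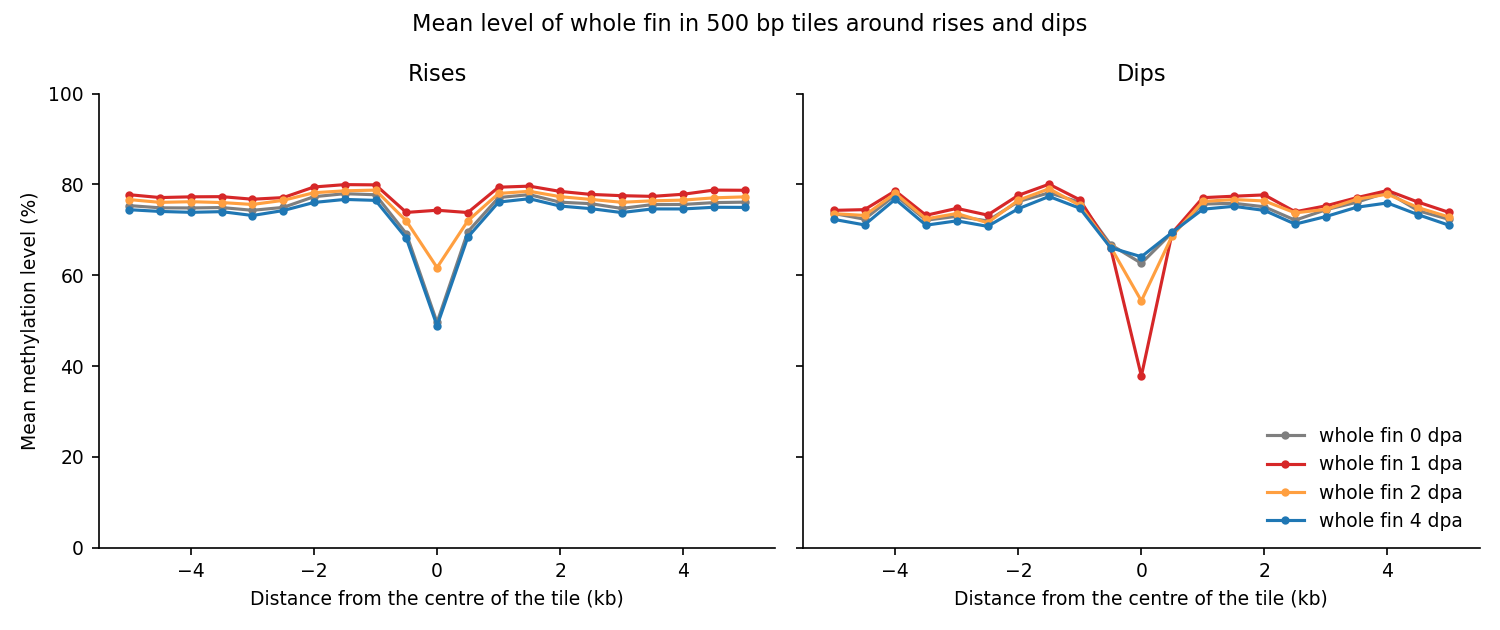
Mean whole fin level in percent against the distance from the centre of the tile in kb, for rises (left) and dips (right), with 1 line for each of 0, 1, 2 and 4 dpa. In rises the 1 dpa line runs nearly flat through a trough that reaches 49.6% at 0 dpa and 48.9% at 4 dpa, and in dips it drops to 37.8% in the central tile alone.

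The level at 2 dpa was not used by the rule. In rises the 2 dpa libraries had medians of 63.2% and 63.6%, 0.401 points apart, and in dips of 55.3% and 53.6%. A yardstick is the mean level of sp7- cells at 4 and 0 dpa, which the rule did not use either. The 2 dpa level minus this mean had a median of 9.30 points in rises and of −3.48 points in dips, against 0.308 points in eligible tiles. Both 2 dpa libraries lay above the sp7- mean in 66.4% of rises, against 33.7% of eligible tiles, and both lay below it in 44.2% of dips, against 26.5%. Without sp7- 4 dpa replicate 2 the medians were 8.29 points in rises and −2.87 points in dips, against 0.108 points in eligible tiles, and the shares were 62.1% of rises, against 32.4%, and 40.1% of dips, against 28.4%. Within a tile the 2 dpa libraries differed by a median of 8.25 points in rises and 10.2 points in dips, against 4.34 points in eligible tiles. A single member tile could thus not be placed to within a few points at this depth. Eligible tiles with levels and depth like those of members were not compared, and the part of level and depth in these shares was not tested.

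Rises and dips differed in how far 2 dpa stood from 1 dpa. The 2 dpa level was nearer to that of 1 dpa than to the mean of 0 and 4 dpa in 1050 rises, 51.3%, and in 88 dips, 32.1%. The median distance from 1 dpa was −12.3 points in rises and 16.6 points in dips, and from the mean of 0 and 4 dpa it was 12.7 points in rises and −8.44 points in dips. These distances use the values that chose the members and are a description.

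The rises with the largest gaps show how the libraries spread. The largest was chr9:44205500-44205999, with 6 CpGs and 20 to 39 calls per whole fin library, where the levels were 43.5% and 28.2% in 0 dpa fin, 75.8% and 70.4% in 1 dpa fin, 66.7% and 63.6% in 2 dpa fin, and 37.0% and 15% in 4 dpa fin. The 95% Wilson interval of the higher 1 dpa library, 25 of 33 calls, ran from 59.0% to 87.2%. Such intervals treat calls as independent, though 1 read can give calls at several CpGs of a tile. They cover counting error only, and may be too narrow even for that. At chr19:29265500-29265999, with 10 CpGs, the levels were 34.8% and 30.4% in 0 dpa fin, 80.0% and 64.3% in 1 dpa fin, 56.0% and 65.0% in 2 dpa fin, and 38.9% and 28.3% in 4 dpa fin. In both tiles the 2 dpa libraries lay apart from 0 and 4 dpa and close to 1 dpa.

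The other large rises differed at 2 dpa. At chr9:26139000-26139499 the levels were 27.5% and 26.1% in 0 dpa fin, 80.0% and 53.3% in 1 dpa fin, 36.4% and 32.0% in 2 dpa fin, and 26.9% and 26.1% in 4 dpa fin. At chr9:46430000-46430499 they were 41.2% and 46.3% in 0 dpa fin, 86.8% and 76.6% in 1 dpa fin, 60.9% and 69.6% in 2 dpa fin, and 36.4% and 41.3% in 4 dpa fin. There the pooled 2 dpa level of 65.2% lay between the others, nearer to the 81.2% of 1 dpa than to the 44.0% of 0 dpa and 39.2% of 4 dpa. The remaining one, chr18:38515000-38515499 with 32 CpGs, had 0% and 16.0% in 0 dpa fin, 71.4% and 84.8% in 1 dpa fin, 18.6% and 17.6% in 2 dpa fin, and 68.3% and 21.0% in 4 dpa fin. Its 4 dpa libraries differed by far more than its 1 dpa and 0 dpa libraries did, and its sp7+ libraries at 4 dpa did too, with 43.0% and 87.2%.

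Among dips, the largest gap was at chr19:20201000-20201499, with 10 CpGs, where the levels were 31.9% and 52.3% in 0 dpa fin, 3.33% and 10% in 1 dpa fin, 48.5% and 22.2% in 2 dpa fin, and 44.1% and 34.8% in 4 dpa fin. At chr20:24113000-24113499 they were 64.6% and 47.2% in 0 dpa fin, 31.9% and 4.35% in 1 dpa fin, 43.3% and 48.1% in 2 dpa fin, and 58.7% and 56.0% in 4 dpa fin. Both had left the 1 dpa level by 2 dpa. At chr11:42169000-42169499, with 14 CpGs, the levels were 41.5% and 38.9% in 0 dpa fin, 6.82% and 9.09% in 1 dpa fin, 8.16% and 20.7% in 2 dpa fin, and 30.3% and 64.7% in 4 dpa fin, so that both 2 dpa libraries stayed below all those of 0 and 4 dpa. The same order was seen at chr4:22979500-22979999, with 45.8% and 50.0% in 0 dpa fin, 13.8% and 13.6% in 1 dpa fin, 21.1% and 31.3% in 2 dpa fin, and 41.8% and 54.8% in 4 dpa fin.

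**Figure D3:**
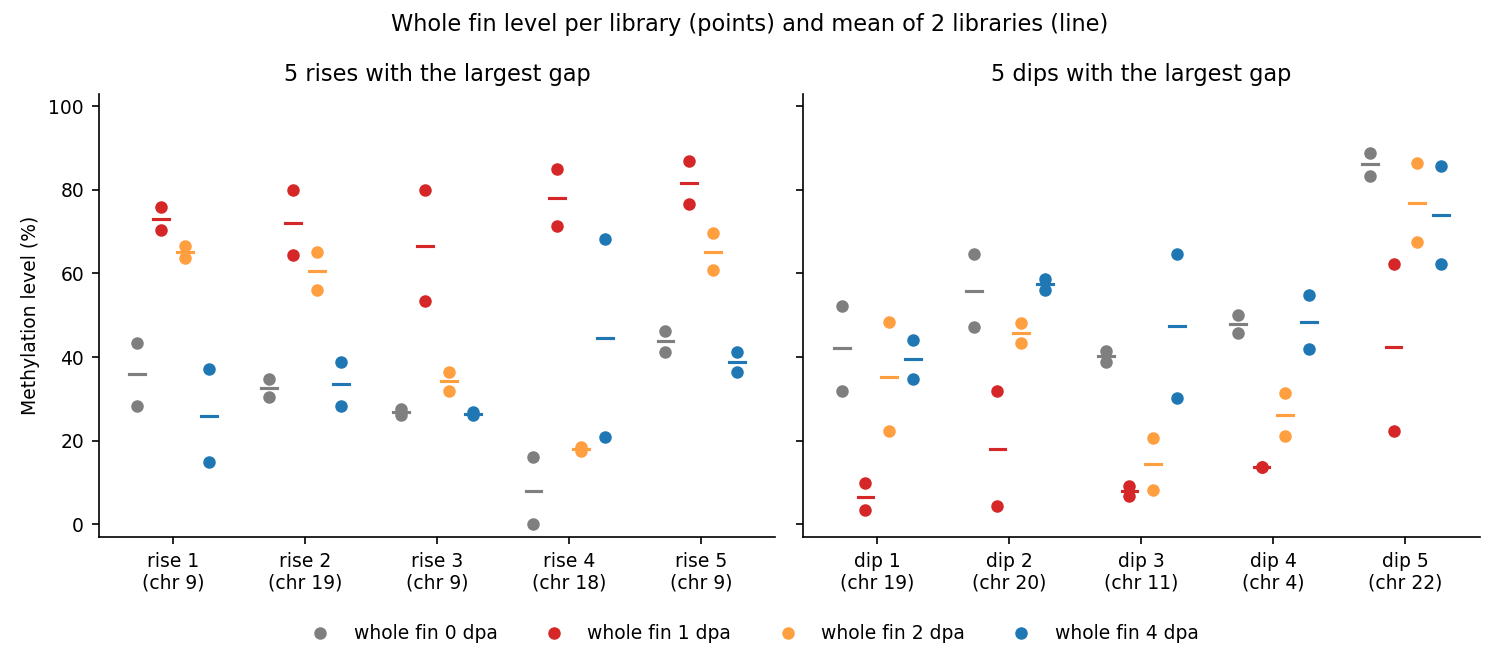
Whole fin level in percent per library (points, with the mean of both as a line) at 0, 1, 2 and 4 dpa for the 5 rises and the 5 dips with the largest gap. The 1 dpa points of each tile lie beyond its 0 and 4 dpa points, as the rule requires, while the place of the 2 dpa points varies, near 1 dpa in rise 1 and dip 3 and near 0 dpa in rise 4.

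The window with 4 dips on chromosome 22 held dense CpGs, 23 to 43 per tile. Its dip chr22:2735500-2735999, the remaining one of the 5 with the largest gap, had 88.9% and 83.3% in 0 dpa fin, 62.3% and 22.4% in 1 dpa fin, 86.4% and 67.4% in 2 dpa fin, and 85.7% and 62.3% in 4 dpa fin. The neighbouring pair were chr22:2664000-2664499, with 84.0% and 80.8% in 0 dpa fin, 58.6% and 49.7% in 1 dpa fin, 74.4% and 61.4% in 2 dpa fin, and 90.6% and 65.3% in 4 dpa fin, and chr22:2664500-2664999, with 72.8% and 77.9%, 58.8% and 50.0%, 75.5% and 61.6%, and 81.5% and 67.1% in the same order. In all 3 tiles replicate 2 was the lower library at 1, 2 and 4 dpa. Of the 10 neighbouring pairs of rises, the pair chr4:1236500-1236999 and chr4:1237000-1237499 had pooled levels of 60.4%, 82.2%, 80.5% and 59.9%, and of 27.8%, 50.0%, 41.0% and 27.4%, at 0, 1, 2 and 4 dpa.

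The sorted cells show the members outside the tissue that chose them. Over the rises the pooled level had a median of 57.5% in sp7+ cells and 52.3% in sp7- cells at 4 dpa, and of 63.4% in sp7+ cells and 56.2% in sp7- cells at 0 dpa. Over the dips it was 52.7% in sp7+ cells and 61.0% in sp7- cells at 4 dpa, and 46.0% in sp7+ cells and 55.1% in sp7- cells at 0 dpa. Joined over the 8 sorted libraries, 86.9% of rises and 78.5% of dips had a level of 25% to 75%, here called intermediate, against 21.0% of eligible tiles. Without sp7- 4 dpa replicate 2 these shares were 85.4%, 74.8% and 20.5%, and the sp7- median at 4 dpa, from replicate 1 alone, was 54.9% in rises and 59.7% in dips. Rises were most frequent at 40% to 60%, with 12.1 per 1000 eligible tiles of that level, against 0.178 per 1000 at 75% and above. Dips were most frequent at 25% to 40%, with 2.25 per 1000, against 0.0524 per 1000 at 75% and above. A step of 20 points needs room in whole fin, and the sorted cells were taken from the same tissue. How much of these shares and rates the rule itself brings was not tested.

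**Figure D4:**
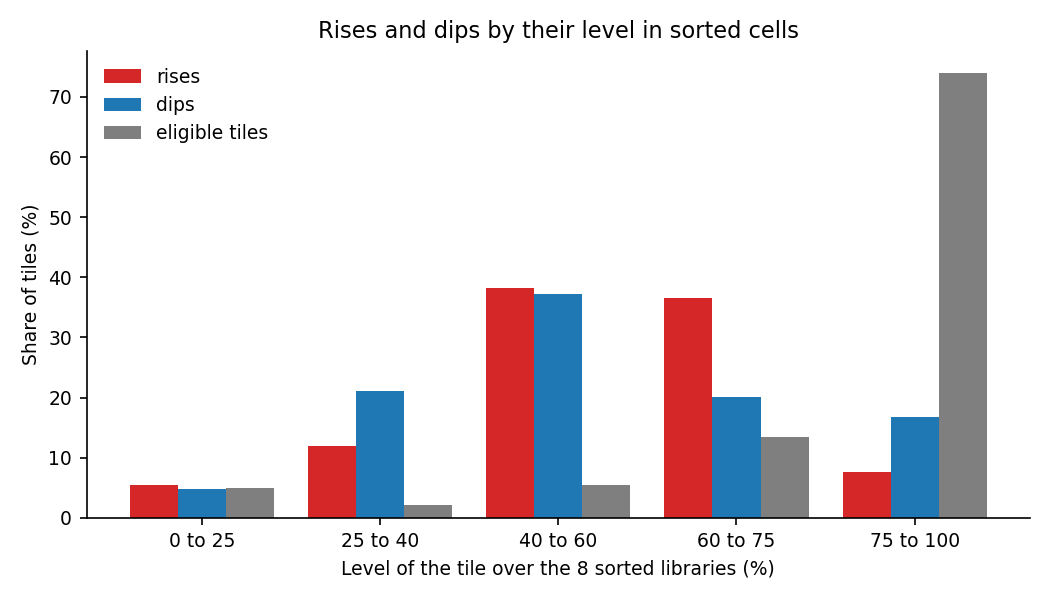
Share in percent of the rises, the dips and all eligible tiles in 5 bands of the level joined over the 8 sorted libraries. Most eligible tiles, 74.0%, lie at 75% to 100%, while the bands of 40% to 75% hold 74.9% of rises and those of 25% to 60% hold 58.4% of dips.

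Members were troughs in sorted cells too. Against the mean of their neighbouring tiles, rises lay 14.3 points lower in the median and dips 15.4 points lower, while eligible tiles lay 1.42 points higher. At least 10 points below the neighbours were 60.3% of rises and 58.4% of dips, against 15.8% of eligible tiles, and without sp7- 4 dpa replicate 2 the shares were 59.5%, 57.7% and 15.7%. Low tiles, under 25% in sorted cells, lay next to 6.45% of rises and 8.03% of dips, against 2.28% of eligible tiles, and 27.1% of rises and 42.0% of dips, against 23.9%, lay within 10 tiles of one, the next tile included. Most members had an intermediate level, and eligible tiles of intermediate level alone were not compared in this way. These shares therefore do not show that lying in a trough or near a low tile is particular to members.

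At most rises the level of 1 dpa fin lay outside the range of the sorted cells. Both 1 dpa libraries lay above all 8 sorted libraries in 1346 of 2044 rises with 10 or more calls in every sorted library, 65.9%, and below all 8 in 123 of 273 such dips, 45.1%. Among eligible tiles the shares were 9.17% above and 3.30% below. The 1 dpa values were used by the rule, so these shares are a description. For the 2 dpa libraries, which it did not use, 17.2% of rises lay above all 8, against 6.30% of eligible tiles, and 8.79% of dips lay below all 8, against 5.13%. Over the 7 sorted libraries without sp7- 4 dpa replicate 2 these shares were 18.5% of rises, against 7.25%, and 9.52% of dips, against 6.97%, and for 1 dpa they were 67.5% of rises, against 10.1%, and 45.4% of dips, against 4.46%. Eligible tiles of intermediate level alone were not compared in this way, and the part of level and depth in these shares was not tested.

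Rises tended to be higher in sp7+ than in sp7- cells, and dips lower. The sp7+ level minus the sp7- level had a median over rises of 3.50 points at 4 dpa and 4.80 points at 0 dpa, and over dips of −6.85 points at 4 dpa and −6.71 points at 0 dpa. The medians over eligible tiles were 0.222 and 0.450 points, and over eligible tiles of intermediate level −0.160 and 0.589 points, at 4 and 0 dpa. At 0 dpa the level was higher in sp7+ cells in 69.8% of rises and lower in 70.3% of dips, and at 4 dpa in 63.9% and 74.7%. Of eligible tiles 55.9% were higher and 44.0% lower at 0 dpa, and 52.6% and 47.3% at 4 dpa. Of those of intermediate level 53.2% were higher and 46.8% lower at 0 dpa, and 49.1% and 50.9% at 4 dpa. Over the rises sp7- 4 dpa replicate 2 had a median of 47.9%, against 54.9% in replicate 1. Without replicate 2 the median difference at 4 dpa was 0.901 points in rises and −4.40 points in dips, against −0.314 points in eligible tiles. The level was then higher in sp7+ cells in 53.8% of rises, against 46.7% of eligible tiles, and lower in 67.0% of dips, against 53.3%.

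Single tiles were tested by fitting the arcsine square root of the level in every tile with 10 or more calls in each sorted library, with variances moderated by limma. A call needed a Benjamini-Hochberg adjusted p under 0.05 over all 1870252 tiles tested and a difference above 25 points. At 0 dpa 33 of 2044 rises were called higher in sp7+ cells, 1.61%, where 0.0642% of all tiles and 0.272% of intermediate eligible tiles were called higher, and 17 rises were called lower, 0.832%, where 0.417% of all tiles and 1.74% of intermediate ones were. Of 273 dips, 19 were called lower in sp7+ cells, 6.96%, beside the same 0.417% and 1.74%, and 0 were called higher. At 4 dpa 29 rises were called higher, beside backgrounds of 0.116% and 0.475%, 18 rises lower, and 21 dips lower, beside 0.361% and 1.5%, with 0 dips higher. At both times 8 rises were called higher in sp7+ cells, where 0.00818% of eligible tiles were, and 7 rises and 10 dips lower, where 0.177% were. The shares called at both times were not computed for intermediate eligible tiles. The count of members called at 0 dpa was 69, and it was 42 without sp7- 0 dpa replicate 1 and 44 without sp7+ 0 dpa replicate 1. At 4 dpa the count was 68, and it was 32 without sp7- replicate 2, 33 without sp7+ replicate 1 and 111 without sp7- replicate 1. On the logit scale 19 members were called at 0 dpa and 6 at 4 dpa, beside 0.187% and 0.106% of all tiles. Of the rises, that scale called 6 higher in sp7+ cells and 6 lower at 0 dpa, and 1 higher and 5 lower at 4 dpa. Rises called higher thus did not outnumber those called lower on that scale. They did not at 4 dpa without sp7- replicate 2 either, where the median difference over rises was 0.901 points. The main fit called 0.481% and 0.477% of all tiles. In each of these alternatives the number of all tiles called moved in the same direction as the count of members.

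The strongest calls between cell types, by adjusted p, went in both directions. At chr4:4238000-4238499, a rise, sp7+ libraries had 12.6% and 5.38% at 4 dpa and 13.2% and 8.82% at 0 dpa, against 59.3% and 47.2% in sp7- libraries at 4 dpa and 61.1% and 52.8% at 0 dpa. The sp7+ minus sp7- difference came to −44.2 points at 4 dpa, against −45.9 points at 0 dpa (limma adjusted p = 9.56e-07 and 6.91e-07). Whole fin at this tile had 53.1% and 52.5% in 0 dpa fin, 72.2% and 77.2% in 1 dpa fin, 61.8% and 63.2% in 2 dpa fin, and 45.7% and 44.6% in 4 dpa fin, so the level at 1 dpa lay above both sorted populations. The rises chr7:38080000-38080499, chr15:25498000-25498499 and chr5:65707500-65707999 were likewise lower in sp7+ cells, by −35.5, −31.5 and −38.7 points at 4 dpa and by −42.5, −37.7 and −35.3 points at 0 dpa.

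Other rises were high in sp7+ cells. At chr5:1417500-1417999 the sp7+ libraries had 72.3% and 76.6% at 4 dpa and 71.6% and 77.3% at 0 dpa, against 38.6% and 29.0% in sp7- libraries at 4 dpa and 52.4% and 28.6% at 0 dpa (limma adjusted p = 2.57e-05 at 4 dpa and 0.00334 at 0 dpa). Whole fin had 38.8% and 34.8% in 0 dpa fin, 61.9% and 81.6% in 1 dpa fin, 50.8% and 41.1% in 2 dpa fin, and 31.6% and 57.1% in 4 dpa fin, so the level at 1 dpa lay near that of sp7+ cells. The rise chr18:47331000-47331499 was higher in sp7+ cells by 31.3 points at 4 dpa and 33.2 points at 0 dpa. At chr20:36689500-36689999 the difference was 28.1 points at 0 dpa (limma adjusted p = 9.78e-07) and 14.7 points at 4 dpa (limma adjusted p = 0.00515), under the 25 point limit at 4 dpa.

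Dips called between cell types were low in sp7+ cells. At chr17:16067500-16067999 the sp7+ libraries had 26.1% and 21.4% at 4 dpa and 5.03% and 8.33% at 0 dpa, against 40.9% and 43.5% in sp7- libraries at 4 dpa and 41.8% and 34.1% at 0 dpa. The sp7+ minus sp7- difference came to −18.4 points at 4 dpa, against −31.2 points at 0 dpa (limma adjusted p = 0.0237 and 7.23e-06). Whole fin had 32.0% and 35.2% in 0 dpa fin, 9.41% and 13.7% in 1 dpa fin, 35.0% and 35.0% in 2 dpa fin, and 37.6% and 47.3% in 4 dpa fin. The dip chr11:42169000-42169499, one of the 5 with the largest gap, was also lower in sp7+ cells, with 27.5% and 34.8% at 4 dpa and 15.2% and 9.68% at 0 dpa, against 56.6% and 65.6% in sp7- libraries at 4 dpa and 46.3% and 29.8% at 0 dpa (limma adjusted p = 0.00888 and 0.00441).

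**Figure D5:**
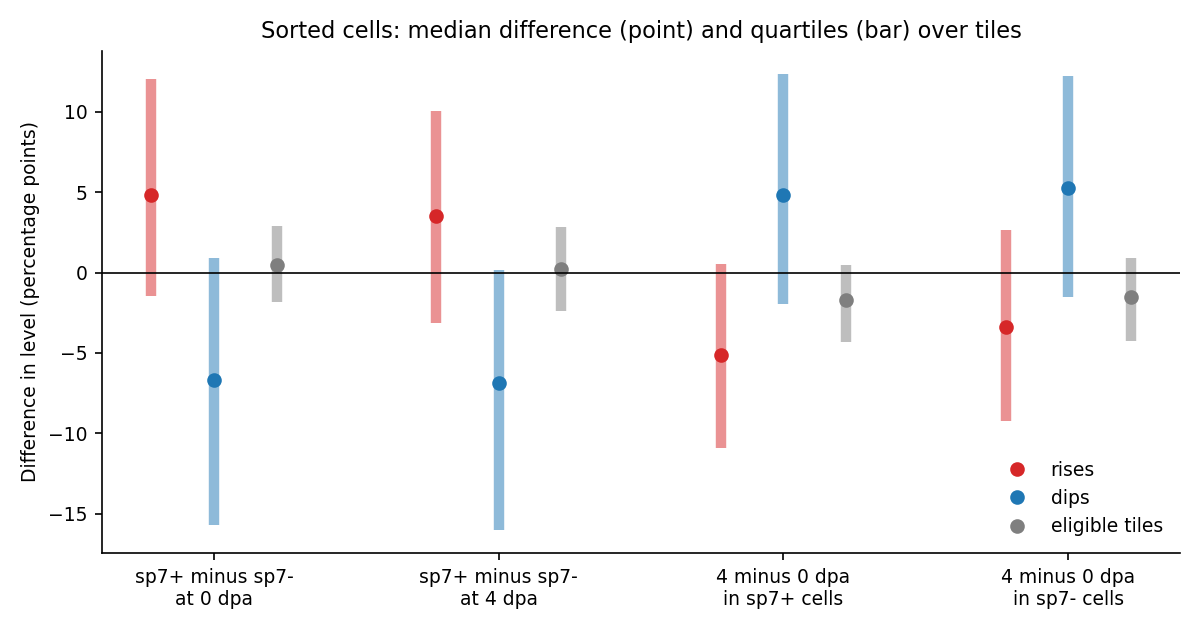
Difference in level in percentage points in sorted cells, as the median (point) and quartiles (bar) over rises, dips and eligible tiles, for 4 comparisons. Rises have positive medians for sp7+ minus sp7- and negative ones for 4 minus 0 dpa, dips the reverse, and eligible tiles lie within 2 points of 0.

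Between the time points, rises tended to be lower and dips higher in sorted cells at 4 dpa than at 0 dpa. By the study's methods, fins of 0 dpa were dissociated with TrypLE and then Liberase, and 4 dpa regenerates with TrypLE alone for longer. Time in sorted cells therefore cannot be told apart from the way the cells were released. The level at 4 dpa minus that at 0 dpa had a median over rises of −5.13 points in sp7+ cells and −3.40 points in sp7- cells, and over dips of 4.82 and 5.29 points. Over eligible tiles the medians were −1.73 and −1.50 points. Without sp7- 4 dpa replicate 2 the sp7- medians were −0.757 points in rises and 2.36 points in dips, against −0.895 points in eligible tiles, so in sp7- cells the rises then stood no lower than the eligible tiles. In sp7+ cells the medians stayed between −5.90 and −4.35 points in rises and between 3.98 and 5.07 points in dips when any sp7+ library was left out.

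Few members passed the test of time. In sp7+ cells 16 rises were called lower at 4 dpa, where 0.0553% of all tiles and 0.166% of intermediate eligible tiles were, 1 rise higher, 5 dips higher, beside 0.0502% and 0.197%, and 1 dip lower. In sp7- cells 14 rises were called lower, beside 0.0887% and 0.376%, 0 higher, 4 dips higher, beside 0.0349% and 0.157%, and 1 dip lower. The count called in sp7+ cells was 23, and it was 6 without sp7+ 0 dpa replicate 1 and 12 without sp7+ 4 dpa replicate 1. The count called in sp7- cells was 19, and it was 1 without sp7- 0 dpa replicate 1, 5 without sp7- 4 dpa replicate 2 and 54 without sp7- 4 dpa replicate 1. The logit scale gave 2 calls in sp7+ cells, and 0 for sp7- cells, beside 0.00802% and 0.00235% of all tiles. The main fit called 0.105% and 0.124% of all tiles. Here too the number of all tiles called moved in the same direction as the count of members in each alternative.

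The strongest call of time in sp7+ cells was the rise chr24:38996000-38996499, where sp7+ libraries had 47.6% and 44.6% at 4 dpa, against 83.9% and 92.6% at 0 dpa, a difference of −42.1 points (limma adjusted p = 2.89e-05). Its sp7- libraries had 60.5% and 37.4% at 4 dpa, against 70.0% and 68.5% at 0 dpa. The rises chr17:14895000-14895499, chr14:17070500-17070999, chr3:50377500-50377999 and chr17:19743500-19743999 were also lower at 4 dpa in sp7+ cells, by −25.4, −27.4, −34.9 and −25.3 points. In chr3:50377500-50377999 the 2 dpa whole fin libraries had 25% and 86.5%, a wider spread than any step between the pooled levels of the time course there.

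In sp7- cells the strongest call of time was the dip chr22:2735500-2735999, with 63.0% and 48.4% at 4 dpa, against 89.0% and 84.6% at 0 dpa, a difference of −31.1 points (limma adjusted p = 0.000986). It is the 1 dip called lower, while 4 dips were called higher. The rise chr7:21494500-21494999 had 62.4% and 46.3% in sp7- cells at 4 dpa, against 83.3% and 78.0% at 0 dpa (limma adjusted p = 0.00298), and 58.2% and 65.8% in 0 dpa fin, 91.1% and 92.2% in 1 dpa fin, 82.8% and 86.4% in 2 dpa fin, and 60.5% and 50.0% in 4 dpa fin in whole fin. The rises chr11:25734000-25734499, chr2:25707000-25707499 and chr12:3499500-3499999 were lower at 4 dpa in sp7- cells by −38.5, −26.1 and −28.8 points. The interaction of cell type and time was called in 0 members by this limma fit, where 14 of all tiles (0.000749%) were called, and 11.4% of rises and 9.89% of dips had an unadjusted p under 0.05, against 5.41% of eligible tiles and 8.44% of intermediate ones.

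In at least 1 of the 4 comparisons of sorted cells 105 rises and 36 dips were called, where 0.878% of eligible tiles were, and 1939 rises and 237 dips with enough calls were called in none of them. The joined share was not computed for intermediate eligible tiles. In the single comparisons 2.01% and 1.97% of these were called between cell types at 0 and 4 dpa. For time in sp7+ and sp7- cells 0.363% and 0.534% were. The shares of rises were 2.45%, 2.30%, 0.832% and 0.685% in that order, and those of dips 6.96%, 7.69%, 2.20% and 1.83%. A call missed at 2 libraries per group does not show that the levels were alike.

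Gene names were available for a few members only. A supplementary table of the study lists regions of GRCz10 whose accessibility differed between 4 and 0 dpa in sorted cells, with nearby genes. Of these, 4227 regions on 11 chromosomes were at hand, and 50 rises and 5 dips lay in one of them. The share of eligible tiles in the same regions was not computed, so these counts do not show that members favour such regions. For 9 rises the listed gene start was within 5 kb, a limit chosen after the values were seen. The rise chr11:27725000-27725499 lay at the listed start of alpl, the alkaline phosphatase that bone-forming cells use in mineralization, with 45.2% and 23.9% in 0 dpa fin, 56.2% and 55.9% in 1 dpa fin, 46.9% and 40.4% in 2 dpa fin, and 30.8% and 38.7% in 4 dpa fin. Its sp7+ libraries had 41.1% and 39.1% at 4 dpa and 32.3% and 36.0% at 0 dpa, against 46.7% and 44.6% in sp7- libraries at 4 dpa and 37.2% and 37.5% at 0 dpa, and none of the comparisons of sorted cells was called.

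The rise near plekha3, a Golgi protein that binds a phosphoinositide lipid, was chr11:29517000-29517499, where sp7+ libraries had 8.89% and 4.30% at 4 dpa and 3.37% and 6.59% at 0 dpa, against 22.8% and 27.6% in sp7- libraries at 4 dpa and 20.9% and 32.1% at 0 dpa. Whole fin there had 39.1% and 33.0% in 0 dpa fin, 51.7% and 62.1% in 1 dpa fin, 58.4% and 47.9% in 2 dpa fin, and 25.4% and 39.6% in 4 dpa fin, above all 8 sorted libraries at 0, 1 and 2 dpa. The rise near zbtb38, a zinc finger protein that binds methylated DNA in mammals, was chr18:41229000-41229499, with 28.6% and 31.4% in 0 dpa fin, 46.8% and 58.7% in 1 dpa fin, 29.8% and 18.3% in 2 dpa fin, and 24.8% and 19.5% in 4 dpa fin.

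Further rises near a listed gene were those of apbb2b, ccdc120, hip1, phldb1b and a 5S ribosomal RNA gene. Their pooled levels at 1 dpa were 73.3% at apbb2b, 47.0% at ccdc120, 63.6% at hip1, 67.9% at phldb1b and 51.4% at the 5S gene, and their gaps ran from 20.3 points at hip1 to 30.3 points at apbb2b. At 2 dpa the pooled levels were 62.8% at apbb2b, 42.3% at ccdc120, 58.2% at hip1, 48.3% at phldb1b and 35.2% at the 5S gene. The 5S ribosomal RNA genes are a family of near-identical copies. The tile lay upstream of the listed copy, and whether it is itself repeated in the genome was not tested, so its value is uncertain.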

How the data were processed

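The authors sequenced whole genome bisulfite libraries, trimmed reads with Trim Galore 0.4.1, mapped them with Bismark 0.16.1 and Bowtie2 to GRCz10 carrying the strain's variants, removed duplicates and left out CpGs that a variant disrupts. They deposited, for each of 23997221 CpGs, the count of reads and the count of methylated reads, both strands joined and not normalized. Here counts were summed in 500 bp tiles. Whole fin tiles were chosen by the rule in the text, and the members and lists were chosen with earlier results of these data known.

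For sorted cells the arcsine square root of (methylated calls + 0.5)/(calls + 1) was fitted with calls as weights and 1 mean per group, in Python 3.11.15 with numpy 2.4.6. limma 3.58.1 in R 4.3.3 moderated the variances, and p-values were adjusted by Benjamini-Hochberg over all tiles tested. The script was tested on simulated data. Differences are between the means of library levels. Sorted replicates are libraries of separate pools by the study's methods. Reads carry no molecular identifiers, so intervals cover counting error only, with calls taken as independent.

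By the study's methods, tissue was collected per replicate and both sp7+ and sp7- cells were sorted from it. Same-numbered sp7+ and sp7- libraries of a time point thus likely share a pool, though the labels do not say so. Their replicate differences had correlations over tiles of 0.128 at 0 dpa and 0.0738 at 4 dpa. The main fit leaves this pairing out, and a fit with the replicate number as a block is given as an alternative. The tiles named are the 5 rises and 5 dips with the largest gap, the first of the longest runs, up to 5 members with the smallest adjusted p in each comparison of sorted cells, and the tiles on either side of the 20 point limit. Alternatives changed the call minimum, the limits, the tile grid, the genome-wide level, the weights, the scale and the libraries included. The study's table of regions that differed in accessibility was used for gene names only, and all 9 gene IDs were found in a table of gene names. The result at 1 of these genes is not reported here.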

Additional observations from a re-analysis of the deposited data

Results flagged for a closer look

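At 3 of the members named in the text, the sp7+ libraries lay on opposite sides of the sp7- libraries at 4 and 0 dpa, without overlap. Over all members 63 rises (3.08%) and 7 dips (2.55%) did so, against 4.28% of eligible tiles. The difference at 0 dpa minus that at 4 dpa was −40.8 points at the rise chr11:25734000-25734499, where sp7+ minus sp7- came to 21.1 points at 4 dpa, against −19.8 points at 0 dpa. It was 29.9 points at the rise chr14:17070500-17070999, with −14.2 points at 4 dpa against 15.7 points at 0 dpa. It was 14.1 points at the dip chr22:2664000-2664499, with −8.91 points at 4 dpa against 5.22 points at 0 dpa. None of the 3 passed the test of the interaction of cell type and time, with limma adjusted p of 0.352, 0.244 and 0.678 in that order.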

How the results depend on the processing

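The counts of members moved with the limits of the rule. With 10 calls as the minimum there were 4478 rises and 881 dips, with 30 calls 1089 and 124, with a 15 point limit 9633 and 1172, with a 30 point limit 64 and 10, with the level shift removed 940 and 525, and in 1000 bp tiles 908 and 139. Without single libraries of 0, 1 and 4 dpa, rises numbered 2477 to 6470 and dips 356 to 1945, and these held 1370 to 1579 of the 2045 rises and 180 to 213 of the 274 dips. The highest counts were those without whole fin 1 dpa replicate 2 (6470 and 1945) or replicate 1 (5295 and 1401), and dips numbered 452 without 0 dpa replicate 2. The median level at 2 dpa was 58.8% in rises with the 30 point limit and 61.6% with the level shift removed, and in dips 49.8% with 30 calls and 44.5% with the 30 point limit. Without 1 of the 2 dpa libraries it was 63.2% to 63.6% in rises and 53.6% to 55.3% in dips.

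In sorted cells, a limit of 10 points gave 222 and 156 members called between cell types at 0 and 4 dpa, and 145 and 44 called for time in sp7+ and sp7- cells. At this limit 1.47%, 1.5%, 0.919% and 0.389% of all tiles were called, in that order. The logit scale gave 19, 6, 2 and 0 members in that order, beside 0.187%, 0.106%, 0.00802% and 0.00235% of all tiles. Equal weights gave 13 for time in sp7+ cells, beside 0.0544%. Leaving out single libraries gave 42 to 80 at 0 dpa, 32 to 111 at 4 dpa, 6 to 29 for time in sp7+ cells, 1 to 54 for time in sp7- cells and 0 to 5 for the interaction. The shares of all tiles called then ran from 0.252% to 0.51%, 0.224% to 0.632%, 0.0231% to 0.126%, 0.0376% to 0.274% and 0% to 0.00952%, in that order. The fit with the replicate block called 75, 73, 27 and 27 members in these 4 comparisons and 2 for the interaction, against 69, 68, 23, 19 and 0 without it. Of all tiles the block fit called 0.542%, 0.542%, 0.157% and 0.174%, and 0.00577% for the interaction. The cause of these moves was not tested. With 20 calls as the minimum in whole fin, differences of a few points at a single tile were not detectable.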
